A study of Mus musculus with 2 samples.

Results

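Id1, Id2, Id3, Id4, Bambi, Smad6 and Smad7 are genes that BMP or TGF-beta signalling can regulate and that in turn restrain transcription or the pathway itself. These 7 genes, of 55415 listed, were chosen by name and family with their earlier ratios between the libraries of these data already known. The comparison of the libraries was therefore part of the choice, and every value of it below is a description without a test. All 7 were detected in both libraries, 5 reached the 200 UMIs (unique transcript molecules) asked of a gene in the biliary cells, and Id4 (33 UMIs) and Bambi (126 UMIs) did not.

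BMP and TGF-beta ligands bind paired membrane receptors, which phosphorylate SMAD proteins that enter the nucleus and bind DNA. Id proteins are helix-loop-helix proteins without a DNA-binding region: they hold E proteins such as Tcf3, Tcf4 and Tcf12 in inactive pairs, and Id1, Id2 and Id3 are widely used readouts of BMP signalling. Bambi is a pseudoreceptor that lacks the kinase, and Smad6 and Smad7 are the inhibitory Smads, which block receptors and signalling Smads, Smad6 mainly in the BMP branch and Smad7 in both. In the liver, endothelial cells are a known source of BMP ligands, and bile duct cells respond to both branches.

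The study counted transcripts in single fixed cells of mouse liver, labelled biliary epithelial cells (the lining of the bile ducts), after split-pool barcoding with the Evercode Whole Transcriptome kit. Reverse transcription used random hexamer and oligo(dT) primers. The 2 groups are 1 library with the genotype label Sox9cKO and 1 with the label Sox9con, named a control in the series design. The labels used here name no Cre driver, promoter, strain, age, sex or treatment, and do not say how many mice gave cells or what the control carries.

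The library labelled Sox9cKO held 2740 cells with a median of 5020 UMIs, and the library labelled Sox9con held 3622 with a median of 3161. They shared 0 cell barcodes, and their cells lay in separate wells of the first barcoding round, 5 and 4, so wells and libraries cannot be told apart. After filtering, 2602 and 3372 cells formed the biliary fraction, 83 and 115 were endothelial-like, 8 and 7 were mesenchymal-like and 17 and 11 stayed unnamed. The biliary fraction is the set of clusters named by biliary markers. All 10 biliary markers were present in each of its clusters, but also in the unnamed one, and none was among a biliary cluster's 10 leading genes. Upk3b and Msln, mesothelial markers, were among the leading genes of 1 biliary cluster each. Values over all kept cells and by cluster number are therefore given too. The endothelial-like cells held all 11 endothelial markers, at 12288 CPM in sum in the library labelled Sox9cKO and 12326 CPM in the other (CPM, a gene's UMIs over all UMIs of the group, times 1000000). They also held the 10 biliary markers, at 871 and 987 CPM in sum, beside 5946 and 9781 CPM in the biliary fraction. How much of their Id2 or other member counts came from biliary RNA was not tested.

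Sox9, the gene the labels name, was counted at 122 CPM in the biliary fraction of the library labelled Sox9cKO and at 146 CPM in the other. By well it ran from 102 to 145 CPM in the former and from 74.3 to 220 CPM in the latter, and it was lower in 10 of the 20 pairs of wells. Sox9 counts thus did not separate the wells by label, and which stretch of the gene is deleted is not given in the sources used here. Each library is called by its label throughout. With 1 library per group there is no replicate check and no p-value, wells are parts of a library and not replicates, and all intervals are 95% and cover counting error only.

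Upstream DNA is shown for 3 members, Id2 and Id3 as members with lower counts in the library labelled Sox9cKO and Smad6 as one at like counts in both. RefSeq sequence (GRCm38.p6) was at hand for 4 of the 7, Id4 being the other one. Each line gives the 250 bases before the annotated start, 5′ to 3′ on the gene's strand. Capitals mark 2 motifs that SMAD proteins can bind, GGCGCC, which reads the same on both strands, and CAGAC or its reverse GTCTG. No match of one overlapped a match of the other. GGCGCC was found in 9.59% of the 32851 upstream windows of the same length and CAGAC in 42.2%, so a match to the latter is common.
Id2, chr12:25096093-25096342, minus strand: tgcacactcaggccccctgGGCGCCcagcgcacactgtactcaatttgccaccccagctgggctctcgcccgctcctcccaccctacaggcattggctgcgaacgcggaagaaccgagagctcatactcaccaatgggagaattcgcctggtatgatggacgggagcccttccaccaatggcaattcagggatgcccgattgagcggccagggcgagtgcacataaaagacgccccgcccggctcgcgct
Id3, chr4:136143572-136143821, plus strand: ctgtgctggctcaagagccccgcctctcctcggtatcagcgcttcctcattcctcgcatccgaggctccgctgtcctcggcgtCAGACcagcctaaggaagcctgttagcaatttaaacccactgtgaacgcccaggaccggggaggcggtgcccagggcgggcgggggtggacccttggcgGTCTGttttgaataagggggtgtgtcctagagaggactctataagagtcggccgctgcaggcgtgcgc
Smad6, chr9:64022060-64022309, minus strand: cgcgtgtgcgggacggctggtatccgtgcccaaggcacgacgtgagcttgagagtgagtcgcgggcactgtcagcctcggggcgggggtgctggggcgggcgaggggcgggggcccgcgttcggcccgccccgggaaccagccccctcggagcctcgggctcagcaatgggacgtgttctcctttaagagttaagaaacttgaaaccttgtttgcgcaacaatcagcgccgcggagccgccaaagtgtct
Id2 held 1 GGCGCC, 231 bases before the start. Id3 held CAGAC motifs at 167 and 68 bases before the start and no GGCGCC. The Smad6 window held neither, which says only that these letters are not in these bases. Id4 held 1 GGCGCC at 148 bases before the start. GC content was 62.8% for Id2 and for Id3 and 66.8% for Smad6, beside a median of 52.4% over all windows.

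In the biliary fraction, the Id genes had fewer transcripts in the library labelled Sox9cKO, by about the same factor for Id1 and Id2 and by more for Id3, while the inhibitory Smads were close to equal. Well D9 of the library labelled Sox9con showed much less of it: its Id1, Id2, Id3 and Bambi levels lay nearer to those of the wells labelled Sox9cKO than to the other wells of its own library. Both facts are needed to read every ratio that follows.

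Id2 was the Id gene with the most UMIs, 692 in the library labelled Sox9cKO and 1321 in the other. Its level by well was 60.3, 45.9, 49.2, 45.3 and 44.1 CPM in A11, A12, B1, B2 and B3, and 64.0, 126, 133 and 131 CPM in D9, D10, D11 and D12. The point values of the 2 libraries did not overlap, but D9 lay just above A11 and far below the other wells labelled Sox9con. The intervals of A11 (50.3 to 71.7 CPM) and D9 (56.3 to 72.4 CPM) overlapped. Summed over wells, Id2 stood at 48.2 against 108 CPM, a log2 ratio of -1.17 (interval -1.31 to -1.04).

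Id3, an Id gene strongly expressed in endothelium, was counted 110 and 296 times in biliary cells. Its wells stood at 10.8, 5.77, 8.14, 8.49 and 6.55 CPM in the library labelled Sox9cKO and at 11.5 (D9), 30.5, 39.3 and 23.8 CPM in the other. Again the point values did not overlap and D9 was the lowest of its library. The intervals of A11 (6.87 to 16.3 CPM) and D9 (8.40 to 15.4 CPM) overlapped. The log2 ratio was -1.66 (-2.00 to -1.35), from 7.66 against 24.3 CPM, the largest difference among the 7 genes.

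Id1, often taken as the most direct BMP target of the family, had 94 and 176 UMIs. Its wells stood at 11.8, 4.98, 6.29, 6.36 and 5.17 CPM against 7.93 (D9), 21.5, 13.1 and 16.6 CPM, so A11 lay above D9 and the groups overlapped by that pair. The log2 ratio was -1.14 (-1.52 to -0.77). It fell short of 2-fold without well D10 (-0.87), at equal depth per cell (-0.77) and with DESeq2 size factors (-0.99).

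Id4, the Id gene best known from neural precursors, was near the limit of counting in biliary cells, with 12 and 21 UMIs. Its level was 0.84 CPM in the library labelled Sox9cKO and 1.72 CPM in the other, wells ran from 0.34 to 2.22 and from 0.47 to 2.65 CPM, and the log2 ratio of -1.01 had an interval from -2.20 to 0.04. Id4 also overlaps the antisense gene A330033J07Rik and the lincRNA Gm49291. Whether counting used strand is not given in the sources used here, so its counts are uncertain.

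Bambi was counted 48 and 78 times. Its wells stood at 4.24, 2.62, 2.96, 3.89 and 3.45 CPM in the library labelled Sox9cKO and at 3.33 (D9), 8.98, 7.48 and 6.95 CPM in the other. D9 lay inside the range of the wells labelled Sox9cKO, and the other 3 wells lay above it. The log2 ratio was -0.93 (-1.49 to -0.40). The pseudogene Bambi-ps1 had 0 UMIs, under the 3 counts (0.21 and 0.25 CPM) that a count of 0 allows.

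Smad6 and Smad7 did not follow the Id genes. Smad7 had 421 and 355 UMIs, 29.3 and 29.1 CPM, with wells from 27.0 to 31.1 and from 26.5 to 31.3 CPM that overlapped fully. Its log2 ratio was 0.01 (-0.20 to 0.22), an interval that leaves out a difference of 2-fold in either direction. Smad6 had 138 and 105 UMIs, 9.60 and 8.62 CPM, with wells from 4.95 to 11.5 and from 5.61 to 11.8 CPM. Its log2 ratio was 0.16 (-0.22 to 0.54). For Smad6, D9 was the highest well of its library, not the lowest.

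**Figure D1:**
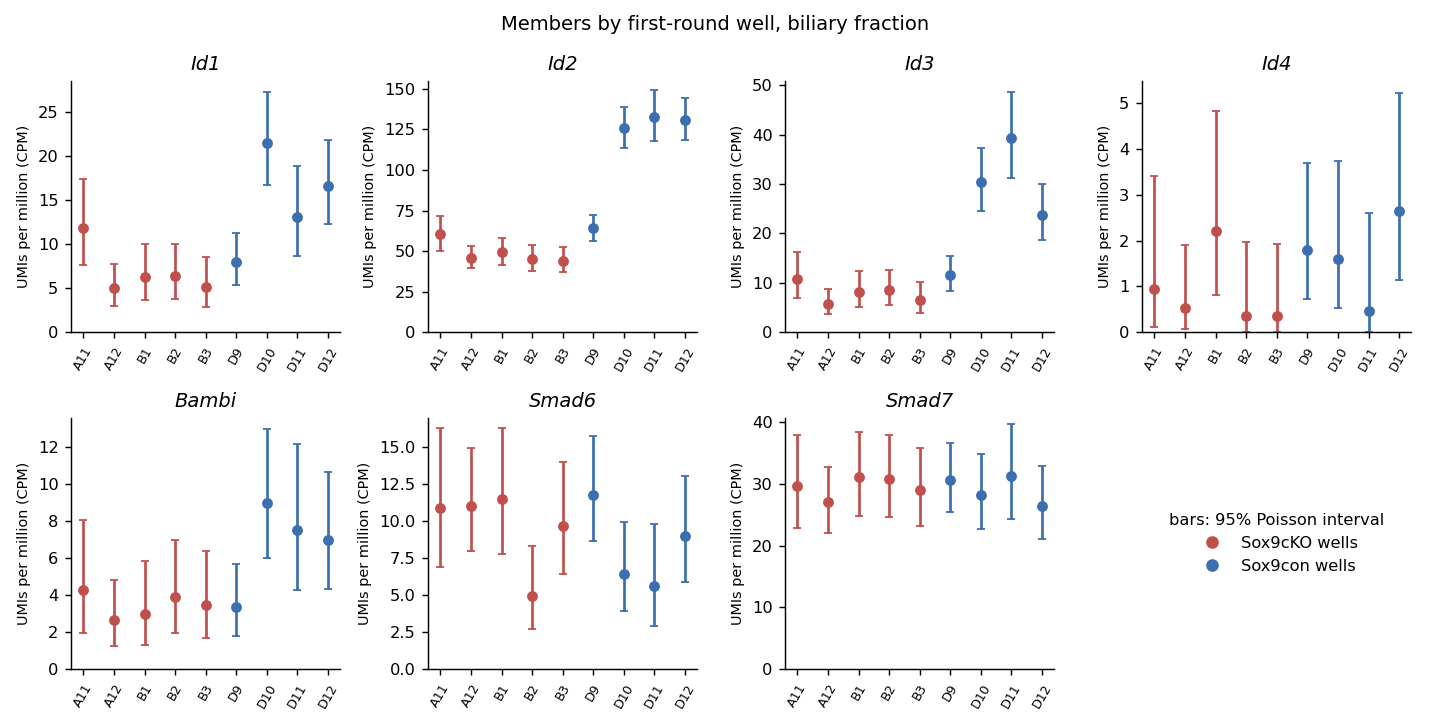
Level of each of the 7 genes (CPM, y axis) in each first-round well (x axis), biliary fraction, with 95% Poisson intervals. Point values of Id2 and Id3 wells of the 2 libraries do not overlap, but the intervals of D9 meet those of A11. D9 lies near the wells labelled Sox9cKO for Id1, Id2, Id3 and Bambi, and Smad7 wells lie between 26.5 and 31.3 CPM in both libraries.

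At least 2-fold lower in the library labelled Sox9cKO were 3 of the 5 genes with 200 UMIs (Id1, Id2 and Id3), beside 1.8% of all 9328 genes tested, and 0 of 5 were at least 2-fold higher, beside 2.18%. The contrast was part of the choice of genes, so nothing is read from these counts. Id2 and Id3 were lower in all 20 pairs of wells, as were 8.32% of genes, and Id1 in 19. Bambi was lower in 17 pairs, Id4 in 15, Smad7 in 9 and Smad6 in 8. Without D9, Id1, Id2 and Id3 were lower in all 15 remaining pairs, as were 21.5% of genes. In the 8 sublibraries, which each hold cells of both groups, Id1, Id2, Id3 and Bambi were lower in all 8. Id4 was lower in 6 of them, and Smad6 and Smad7 in 3 each. Sublibraries are splits of the same 2 libraries and not replicates. The share of all genes lower in all 8 was not counted, so nothing is read from these counts.

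Measured against D9 alone, the differences were much smaller, a comparison added after the values were seen. For Id2 the log2 ratio was -0.41 (-0.62 to -0.19), for Id3 -0.59 (-1.10 to -0.05) and for Id1 -0.28 (-0.88 to 0.36). Bambi stood at 3.34 CPM against 3.33 in D9. No tested member was 2-fold lower than in D9, beside 1.02% of genes. Against D10, D11 and D12 together, the ratios were larger, at -1.43 for Id2, -1.98 for Id3, -1.42 for Id1 and -1.22 for Bambi. The size of the Id difference therefore rested on which wells labelled Sox9con were used. Id2 stood at 64.0 CPM in D9 and at 129 CPM in D10 to D12 together. Id3 stood at 11.5 and 30.3 CPM, and Id1 at 7.93 and 17.5 CPM.

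D9 differed from D10, D11 and D12 in other measured ways. Its biliary cells had a median of 4346 UMIs, where the other 3 wells had 2393 to 3348 and the wells labelled Sox9cKO 3537 to 6485. Its Sox9 level, 220 CPM, was the highest of all 9 wells. Its mix of clusters was that of its own library, with 33.5% of biliary cells in cluster 0 beside 34.1% to 40.1% in D10 to D12 and 2.1% to 5.3% in the wells labelled Sox9cKO. UMIs from genes that span up to 10 kb of genome made up 11.7% of its biliary UMIs. That share was 15.7% to 17.7% in D10 to D12 and 11.2% to 12.8% in the wells labelled Sox9cKO. The summed level of Id1, Id2 and Id3 was 83.4 CPM in D9 and 83.0 CPM in A11, 55.9 to 63.6 CPM in the other wells labelled Sox9cKO, and 171 to 185 CPM in D10 to D12.

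The Id genes are short: Id1 spans 1.16 kb, Id3 2.26 kb, Id2 3.34 kb and Id4 4.80 kb, whereas Bambi spans 8.48 kb, Smad7 28.4 kb and Smad6 69 kb. In the biliary fraction, the shortest of 20 equal bins of genes by span (up to 3.95 kb) had a median log2 ratio of -0.57 with 9.44% of its genes at least 2-fold lower, against -0.07 over all tested genes. The bins of Smad7 and Smad6 had medians of -0.03 and 0.01. Relative to the median of its own bin, added after the values were seen, Id3 was at -1.09, Bambi at -0.63, Id2 at -0.60, Id4 at -0.59 and Id1 at -0.57. Smad6 was at 0.14 and Smad7 at 0.04. The part of gene span, depth or well in the Id difference was not tested.

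**Figure D2:**
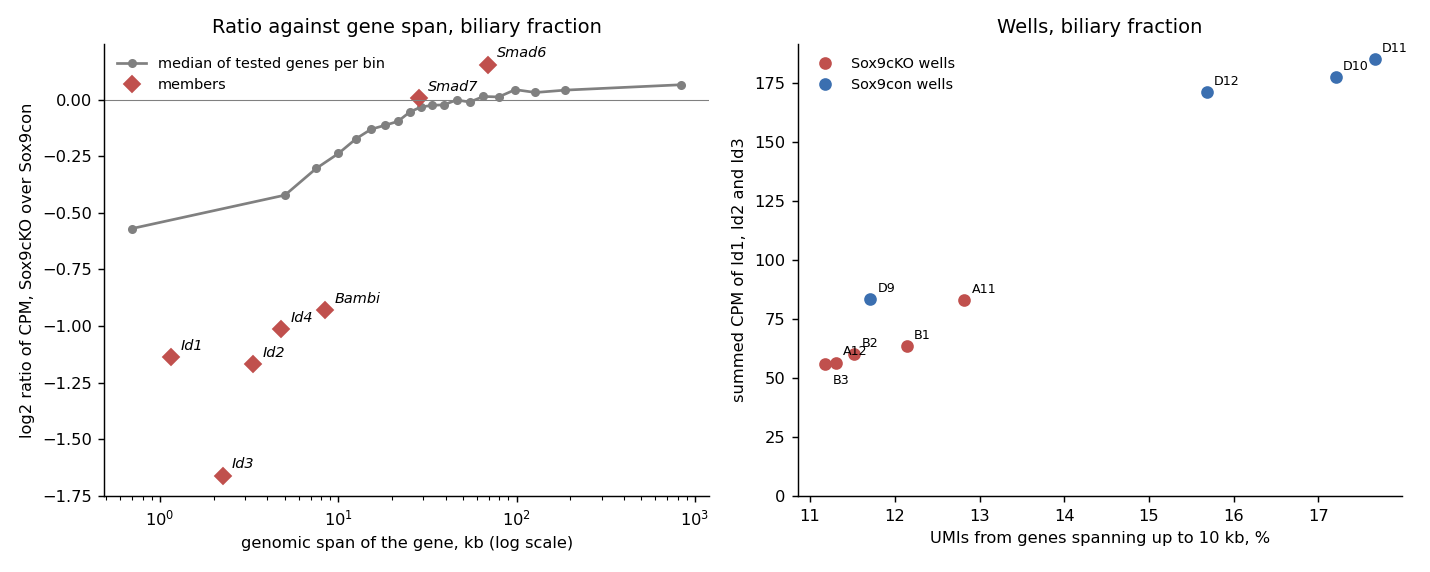
Left, log2 ratio of CPM in the biliary fraction, Sox9cKO over Sox9con (y axis), against genomic span in kb (log x axis), for medians of 20 bins of genes (grey, at the geometric mean of each bin's limits) and the 7 genes (red). Right, summed CPM of Id1, Id2 and Id3 (y axis) against the percent of UMIs from genes spanning up to 10 kb (x axis), 1 point per well. The Id genes lie below bins that are themselves below 0, and D9 lies with the wells labelled Sox9cKO, at 11.7%.

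Within clusters, Id2 and Id3 were lower as well, although the clusters were very unequal between libraries. Clusters 1, 3 and 6 had at least 100 cells of each library. For Id2 the log2 ratio was -0.85 in cluster 1, -1.32 in cluster 3 and -1.24 in cluster 6, with no interval that reached 0. For Id3 it was -1.53, -2.56 and -0.92, and only the last interval (-3.09 to 0.77, from 4 and 11 UMIs) included 0. Id1 was at -1.08 in cluster 1, from 22 and 20 UMIs, at -0.61 in cluster 3 and at 0.38 in cluster 6, the last from 2 UMIs in each library. Smad7 was at -0.21, -0.29 and -0.08, each with an interval that included 0. Smad6 was at 0.63, -1.72 (-3.57 to -0.36) and -1.50, from at most 26 UMIs in a group, and the intervals of the first and last included 0.

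Clusters 4 and 5 held 691 and 527 cells of the library labelled Sox9cKO and 1 cell each of the other, and clusters 0 and 2 held 1217 and 931 cells of the library labelled Sox9con beside 94 and 65. In cluster 0, Id2 was at 84.4 and 97.8 CPM, a log2 ratio of -0.21 (-0.85 to 0.36), and Id3 at 19.5 and 21.0 CPM. In cluster 2, which had the highest Id3 level of the biliary clusters in the library labelled Sox9con, Id3 had 141 UMIs in 931 cells (43.3 CPM) and 0 in the 65 of the other library. In the same cluster Id2 was at 101 and 158 CPM. Id2 stood at 39.3 CPM in cluster 4 and 78.0 CPM in cluster 5, and Bambi at 2.25 and 7.17 CPM. A Mantel-Haenszel ratio over the 6 clusters with 30 cells of each library, added after the values were seen, was -1.74 for Id3, -0.94 for Id2, -0.90 for Id1, -0.86 for Bambi, -0.31 for Smad7 and -0.29 for Smad6. Id1 and Id2 were then short of 2-fold.

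Over all kept cells, where no cluster name enters, the ratios were -1.20 for Id1, -1.17 for Id2, -1.71 for Id3, -0.99 for Id4 and -0.81 for Bambi. Smad6 stood at -0.16 and Smad7 at -0.12.

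At equal depth of 2000 UMIs per cell, 9.18% of biliary cells labelled Sox9cKO (8.06% to 10.4%) and 17.7% of those labelled Sox9con (16.4% to 19.2%) held an Id2 UMI. This left out 139 and 566 shallower cells of the 2 libraries. Another random draw to the same depth gave 7.51% and 18.5% for Id2. The former lies outside its interval above, which does not cover the spread between draws. Before thinning, at median depths of 5125 and 3226.5 UMIs, the shares were 18.9% and 25.7%. Id3 was found in 1.62% (1.16% to 2.20%) and 4.56% (3.82% to 5.40%) of cells, 3.50% and 7.06% before thinning. Id1 was found in 1.50% and 2.49%, with intervals that met (up to 2.06% and from 1.95%), and Bambi in 0.53% and 1.35%. Id4 was found in 0.20% and 0.32%. Smad6 was found in 2.07% and 1.21% of cells, but at 1000 UMIs per cell, with no cells left out, in 0.69% and 0.89%, the opposite order. Smad7 was found in 4.47% and 5.35% at 2000 UMIs, and in 13.0% and 8.81% before thinning. No order between libraries is read from the shares of either Smad. At 1000 UMIs the Id2 shares were 4.42% and 10.3% and those of Id3 0.85% and 3.02%. None of the 7 was found in 82.1% and 71.3% of thinned biliary cells.

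Free RNA of other cells can give single UMIs in cells that do not express a gene. The 11 endothelial markers stood in biliary cells at 0.25% and 0.37% of their endothelial-like level in sum, single markers between 0.08% and 1.25%, and none was at 0. Id4 in biliary cells stood at 1.09% and 1.70% of its endothelial-like level, a little above the highest marker of each library (0.83% and 1.25%). No expression in biliary cells is read from its 12 and 21 UMIs there. The other members stood further above the markers. Smad6 was at 3.87% and 3.65%, Id3 at 4.53% and 6.53%, Smad7 at 14.8% and 11.8% and Id1 at 20.8% and 18.7%. Scrublet marked 5 of 6362 cells as doublets, a share at which the caller cannot be taken to have found them.

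Endothelial-like cells carried more of most members than biliary cells did. The cells were clustered without the 7 genes, but the populations come from the same cells, so this is a description. At least 2-fold higher in both libraries were 4 of the 5 genes with enough UMIs (Id1, Id3, Smad6 and Smad7), beside 10.2% of 9478 genes. Smad6, which restrains BMP signalling in vessels, stood at 250 and 238 CPM in endothelial-like cells, 25.8 and 27.4 times its biliary level. Id3 stood at 170 and 373 CPM, 22.1 and 15.3 times as high, and Smad7 at 198 and 247 CPM, 6.75 and 8.45 times as high. Id1 stood at 31.7 and 77.5 CPM, 4.80 and 5.34 times as high.

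Id2 was the exception: at 39.6 and 112 CPM it stood at 0.82 and 1.03 times its biliary level, with log2 intervals of -1.35 to 0.61 and -0.45 to 0.50. Id4, uncertain as above, had 21 and 37 UMIs in the 83 and 115 endothelial-like cells (83.2 and 106 CPM), more than in all biliary cells together. Bambi had 3 and 5 UMIs there, too few to order the populations. Mesenchymal-like cells, 8 and 7 in number, held 6 and 17 UMIs of Id3 and 9 and 4 of Smad7. Across the 2 populations and 2 libraries, Id1 and Id3 had the same order of levels, from biliary Sox9cKO over biliary Sox9con and endothelial-like Sox9cKO to endothelial-like Sox9con. For Id3 no neighbours in that order had intervals that met. For Id1 the endothelial-like Sox9cKO interval (13.7 to 62.4 CPM) met both of its neighbours (12.4 to 16.7 and 51.0 to 113 CPM). For Id2 the order went by library, with the endothelial-like intervals (19.0 to 72.9 and 79.6 to 153 CPM) spanning the biliary levels. Smad6 and Smad7 formed 2 levels, biliary and endothelial-like, with overlapping intervals between libraries at each.

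**Figure D3:**
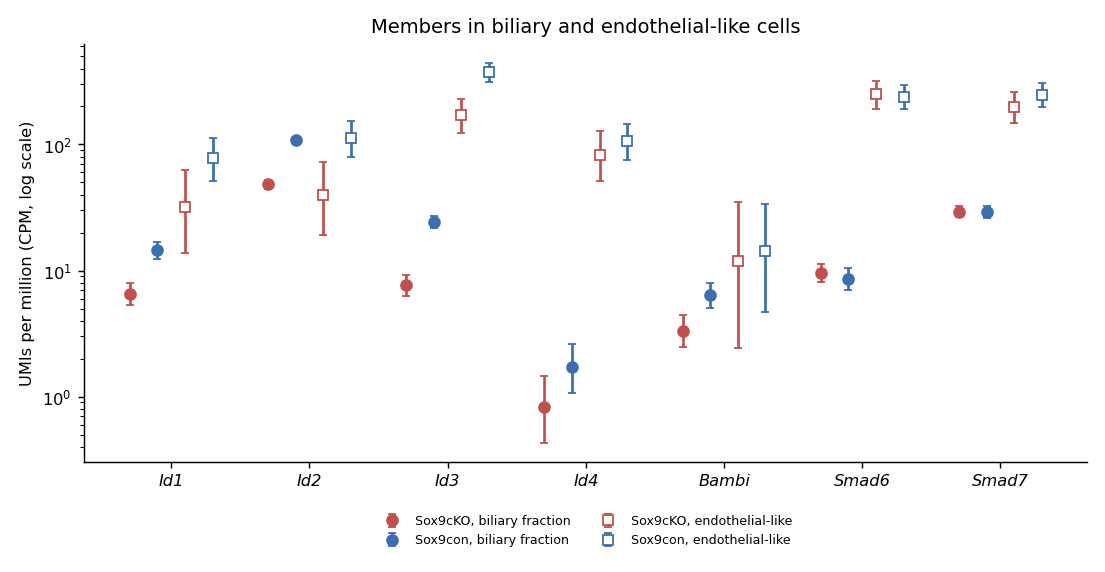
Level of each gene (CPM, log y axis) in biliary (filled circles) and endothelial-like cells (open squares) of each library, with 95% Poisson intervals. Smad6, Smad7, Id3 and Id4 lie far higher in endothelial-like cells, and Id2 lies at about the same level in both populations.

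In endothelial-like cells, too, Id1, Id2 and Id3 were lower in the library labelled Sox9cKO and the inhibitory Smads were not clearly different. Id3 had 43 and 130 UMIs. Its wells stood at 232, 27.7, 195, 274 and 228 CPM in A11, A12, B1, B2 and B3, and at 154, 440, 610 and 507 CPM in D9, D10, D11 and D12, so D9 lay below 4 of the 5 wells labelled Sox9cKO. The log2 ratio was -1.12 (-1.66 to -0.62). Id2 had 10 and 39 UMIs, a ratio of -1.46 (-2.67 to -0.47), and Id1 8 and 27, a ratio of -1.25 (-2.64 to -0.11). Of the 8 Id1 UMIs, 5 were in A11 and 3 in B1. Smad6 was at 0.07 (-0.43 to 0.56), Smad7 at -0.31 (-0.85 to 0.20), Id4 at -0.35 (-1.20 to 0.46) and Bambi at -0.24 (-2.96 to 2.09).

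At least 2-fold lower here were 3 of the 6 members with 20 UMIs, beside 7.23% of 4857 genes, and 0 were at least 2-fold higher, beside 3.62%. In the shortest span bin of these cells, 27.2% of genes were at least 2-fold lower, and the bin's median was -0.53. Relative to it Id2 stood at -0.93, Id1 at -0.72 and Id3 at -0.60, none of them past 2-fold. Against D9 alone, with 29 endothelial-like cells, Id3 was at 0.15 (-0.64 to 0.98) and Id1 at 0.48, both above 0, and Id2 at -0.70 (-2.19 to 0.74). None was 2-fold lower than in D9, beside 7.56% of genes. Leaving out A12 or D12 left 1 of the 3 past 2-fold.

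**Figure D4:**
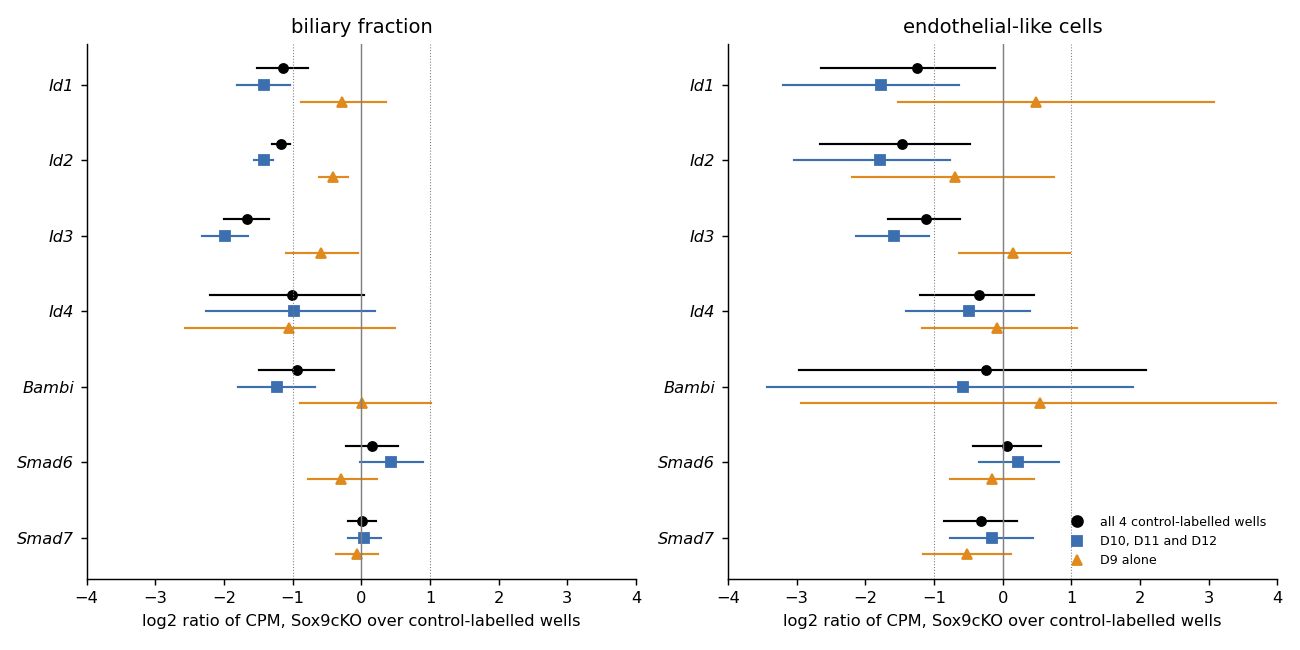
log2 ratio of CPM (x axis) for the 7 genes in biliary (left) and endothelial-like cells (right), Sox9cKO wells over all 4 control-labelled wells (circles), over D10, D11 and D12 (squares) and over D9 alone (triangles), with 95% counting intervals (the D9 interval of Bambi on the right runs past the axis). Id1, Id2 and Id3 are lowest against D10, D11 and D12 and higher against D9, and the intervals of Smad6 and Smad7 include 0 in all 3 comparisons in both populations.

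The endothelial-like ratio minus the biliary one was -0.11 for Id1 (-1.27 to 1.06), -0.29 for Id2 (-1.28 to 0.70) and 0.54 for Id3 (-0.05 to 1.13). The counts could not tell the 2 populations apart in this respect. Id1, Id2 and Id3 were all among the 22 genes at least 2-fold lower in both populations, 0.5% of 4403 genes tested in both. Of those 22 genes, 16 span up to 10 kb, Id1, Id2 and Id3 among them. The share of all 4403 genes that span up to 10 kb was not counted, so nothing is read from that count. Those 16 include the ubiquitin gene Ubb (-1.81 in biliary cells), the stress gene Gadd45b (-1.02) and the metallothionein Mt1 (-1.12), named after their values were seen.

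At 2000 UMIs per cell, 54 and 71 endothelial-like cells remained. Id3 was found in 20.4% (10.6% to 33.5%) and 39.4% (28.0% to 51.7%) of them, Smad7 in 31.5% and 45.1%, and Id4 in 20.4% and 21.1%. Smad6 was found in 22.2% and 36.6% of these cells, but in 38.6% and 36.5% before thinning and in 24.1% and 15.7% at 1000 UMIs, so no order is read from it. Id1 was found in 2 of 54 cells and 11 of 71. None of the 7 was found in 31.5% of the cells labelled Sox9cKO and in 14.1% of those labelled Sox9con.

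Members were seldom counted in the same biliary cell. At 2000 UMIs per cell, 3 of 2806 cells labelled Sox9con held 4 or more of the 7, and 0 of 2463 labelled Sox9cKO did, which allows up to 0.12%. Id2 and Id3 were found together in 32 cells labelled Sox9con where their shares alone give 22.7, a ratio of 1.41 (0.96 to 1.99), and in 5 against 3.67 of those labelled Sox9cKO. Id1 and Id2 were found together in 18 against 12.4 (1.45, from 0.86 to 2.29) and in 4 against 3.40. At 1000 UMIs per cell that pair was found in 2 cells labelled Sox9con against 5.37 (0.37, from 0.05 to 1.35) and in 0 against 0.97 of the others, so its direction turned with depth. Id2 and Id3 were then at 13 against 10.5 and at 2 against 0.97.

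The inhibitory pair Smad6 and Smad7 was found together in 6 cells of each library, against 1.82 in the one labelled Sox9con (3.30, from 1.21 to 7.19) and 2.28 in the other (2.63, from 0.97 to 5.73). Id3 and Smad7 met in 13 cells labelled Sox9con against 6.84 (1.90, from 1.01 to 3.25). In those labelled Sox9cKO they met in 2 against 1.79 (1.12, from 0.14 to 4.04). At 1000 UMIs per cell in the library labelled Sox9cKO, Id3 and Smad7 met in 0 cells against 0.58. Smad6 and Smad7 then met in 1 against 0.48 (from 0.05 to 11.7). The other pairs of members are not shown. With expectations summed cluster by cluster at 2000 UMIs, the ratios in the library labelled Sox9con were 1.30 for Id2 with Id3, 3.05 for Smad6 with Smad7 and 1.74 for Id3 with Smad7. These are ratios of small counts, and cells of 1 cluster and well share a source.

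The other genes of the pathway were described by lists, whose medians lay between -0.15 and 0.08 in biliary cells. Of the ligands, 11 of 16 had 20 UMIs in biliary cells, with a median log2 ratio of 0.08, 0 at least 2-fold lower and 2 at least 2-fold higher: Inhba, the activin A subunit (322 and 75.3 CPM, ratio 2.10), and Bmp4 (30 and 10 UMIs, ratio 1.31). Bmp6, a ligand upstream of Id genes, stood at 1062 and 874 CPM in biliary cells, a ratio of 0.28. In endothelial-like cells Bmp6 was at lower levels, 349 and 499 CPM, and its ratio had the opposite sign, -0.52 (-0.90 to -0.14). Bmp2 stood at 23.3 and 34.5 CPM in biliary cells and at 951 and 1291 CPM in endothelial-like cells, with ratios of -0.56 and -0.44.

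Of the receptors, 12 of 13 had 20 UMIs, with a median of -0.15. The BMP type I receptor gene Bmpr1b was at least 2-fold lower (23 and 48 UMIs, -1.28), while Bmpr1a stood at 134 CPM in both libraries and Bmpr2 at 135 and 124 CPM. The TGF-beta receptor gene Tgfbr2 was at 274 and 183 CPM, a ratio of 0.58. The signalling Smads of the BMP branch, Smad1 and Smad5, were at 0.03 and 0.43, and those of the TGF-beta branch, Smad2 and Smad3, at -0.11 and 0.13. The common Smad4 was at -0.05. Their median over 5 genes was 0.03.

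Of the extracellular antagonists, 6 of 13 had 20 UMIs, with a median of -0.10. Fst, which encodes the activin antagonist follistatin, stood at 48.7 and 2.95 CPM (ratio 4.03), and Fstl3 at 16.6 and 29.5 CPM (-0.83). Other SMAD target and feedback genes had a median of 0.06 over 11 genes, with 1 at least 2-fold lower. Atoh8, a BMP target in liver, was lower, from 11 and 36 UMIs (-1.90, interval -3.07 to -0.94). Ccn2, a TGF-beta target, was higher, at 1.25. Skil and Pmepa1, TGF-beta feedback genes like Smad7, were at 0.50 and 0.02.

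Among partners of the Id proteins, Tcf3 stood at 24.6 and 15.4 CPM (0.67), Tcf4 at 0.11, Tcf12 at -0.05 and Hes1, a Notch target that also binds Id proteins, at -0.81. The median over 5 genes was -0.05. Genes that dissociation of tissue induces had a median of -0.32 over 16 genes, 14 of them below 0 and none 2-fold apart, with Zfp36 lowest (-0.88) and Dusp1 highest (0.35). Their summed level by well ran from 3668 to 5044 CPM in the library labelled Sox9cKO and from 4490 to 5516 CPM in the other, with D9 the highest well. In endothelial-like cells their sum was lowest in D9 among the wells labelled Sox9con (5167 CPM, beside 8727 to 9627 CPM), as was the sum of Id1, Id2 and Id3 (242 CPM, beside 661 to 951 CPM). Among the wells labelled Sox9cKO, A12 was lowest in both sums there (4500 and 41.5 CPM). The part of these genes in the Id difference was not tested. For the 7 members the median was -1.01, and over all 9328 genes tested it was -0.07.

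**Figure D5:**
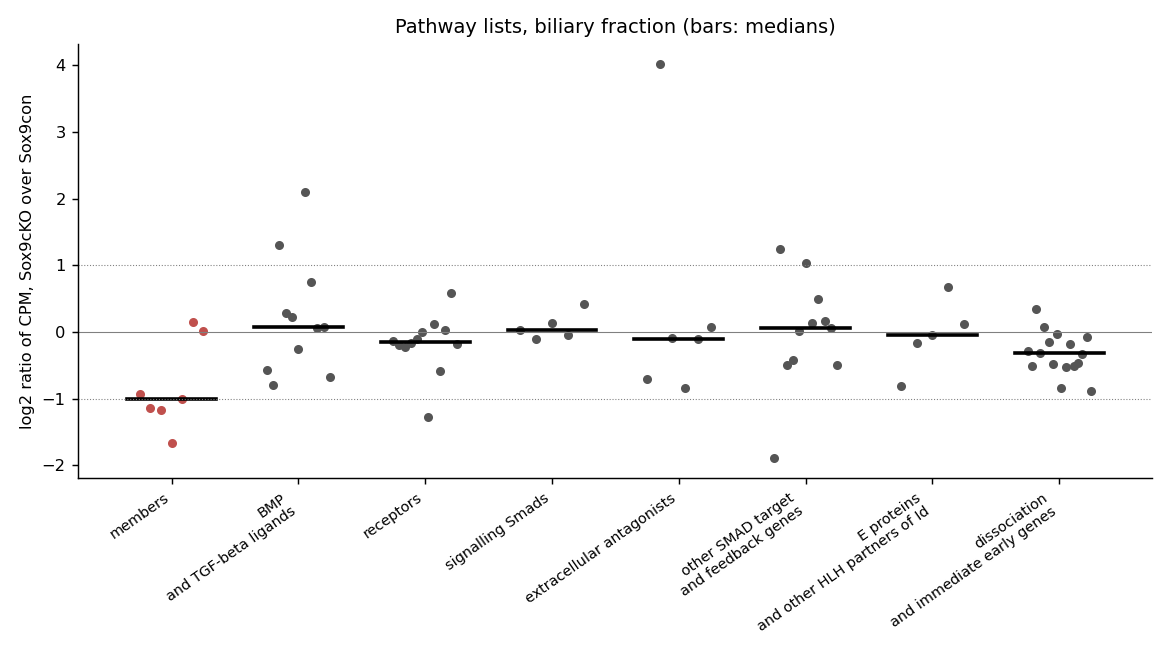
log2 ratio of CPM, Sox9cKO over Sox9con, in the biliary fraction (y axis) for each gene with at least 20 UMIs in the 7 members (red) and in the other pathway lists (grey), with list medians as bars. The medians of the other lists lie between -0.32 and 0.08. That of the members, -1.01, is the ratio of Id4. The members were chosen with their ratios known, so nothing is read from the gap.

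The genes whose levels were most like those of a member were ranked by Pearson's r of log2(CPM + 1) over 16 groups of 1 cluster and 1 library, among 9537 genes. The groups share libraries, and the 2 endothelial-like groups weigh heavily. Smad6 was closest to Mb21d2 (0.97), Atp1b3 and Shank3, Smad7 to Dusp3 (0.96), F8 and Egfl7, and Id3 to Tifa (0.91), H2-T23 and Cyb5a. Id1 was closest to Pcna (0.90), Irgm2 and Irgm1, and Id2 to Npas3 (0.90), Osgin1 and Dynll2. Without the endothelial-like groups, over 14 groups, 1 of these 15 names, Dusp3 for Smad7 (0.87), was still among the 3 closest.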

How the data were processed

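The authors deposited, per the file headers, a matrix of UMI counts (whole numbers) by cell and gene for each library, and tables of genes and of cells with their wells. The submitters' processing notes name the build GRCm39. The aligner, annotation release, use of strand and choice of cells are not given in the sources used here. The members, lists and markers were chosen with earlier results of these data known. The named genes are all members, list genes with at least 20 UMIs, the 3 genes most like each member with 200 UMIs, and Sox9. Ubb, Gadd45b, Mt1, Rps2, Cox6a1, Upk3b, Msln, Bambi-ps1, A330033J07Rik and Gm49291 lie outside this rule and were named after their values or places were seen.

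Cells with at least 500 genes, 1000 UMIs and at most 15% mitochondrial UMIs were kept. Scanpy 1.11.5 clustered both libraries together without integration and without the members (2000 variable genes, 30 components, 15 neighbours, leidenalg 0.10.2 at resolution 0.5). A cluster took the name of the class most of whose markers reached 50 CPM in it. Counts were summed per library, and log2 ratios had 0.5 counts added at the mean total. Ratios have exact conditional binomial intervals, levels exact Poisson and shares Clopper-Pearson intervals, and that of Mantel-Haenszel ratios is normal. Difference intervals are normal on the log scale. The ratios were tested on simulated data. Genome spans were taken from GENCODE M21 (GRCm38) by gene identifier for 99.9% of tested genes, and upstream sequence from RefSeq. Alternatives included TMM factors of edgeR 4.0.16 and size factors of DESeq2 1.42.0, other cell filters and populations, thinning, and each well or sublibrary. Some list genes are not reported here.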

Additional observations from a re-analysis of the deposited data

How the results depend on the processing

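The count of members at least 2-fold apart in biliary cells was 3 and moved to 0 with D9 as the one control-labelled well, to 1 after centring on genes of like span, to 1 with the Mantel-Haenszel ratio and to 1 in sublibrary s1 alone. It stayed between 2 and 4 under the other alternatives. In endothelial-like cells the count of 3 moved to 0 with D9 alone, to 0 after centring on span, and to 1 without A12, without D12 or with a minimum of 50 UMIs. Against D9 alone the endothelial-like ratios reversed, to 0.48 for Id1 and 0.15 for Id3. In sublibraries s1 and s3 alone the biliary Id4 ratio, from few UMIs, was 0 and 1.72. The D9, span and Mantel-Haenszel alternatives were chosen after seeing the data, and the cause of these moves was not tested. The count of 4 members at least 2-fold higher in endothelial-like cells held in all 16 alternatives run for it.

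Biliary ratios ran from -1.43 to -0.41 for Id2, -1.98 to -0.59 for Id3 and -1.42 to -0.28 for Id1 over 22 alternatives other than single sublibraries, each set by leaving out or keeping D9. Those of Bambi ran from -1.50 (thinned) to 0.01 (D9 alone). Smad6 ran from -0.29 (Mantel-Haenszel) to 0.57 (thinned) and Smad7 from -0.31 to 0.16. Endothelial-like Smad6 ran from -0.77 (thinned) to 0.25 and Smad7 from -0.55 to -0.12 over 19 alternatives. Those of Id1 ran from -2.40 to 0.48, of Id2 from -2.09 to -0.70 and of Id3 from -1.58 to 0.15, the highest of each with D9 alone. DESeq2 size factors moved the median ratio of all tested genes from -0.07 to 0.08, Id2 to -1.02 and Id3 to -1.51, and TMM factors moved that median to 0.03. Of all genes past 2-fold, 168 were lower and 203 higher by total UMIs, 113 and 246 with TMM, and 94 and 276 with DESeq2. No paired analysis was possible because each group has 1 library. Counts of 12 to 48 UMIs limit Id4 and Bambi in biliary cells, and of 8 to 43 UMIs the Id genes in endothelial-like cells, in the library labelled Sox9cKO.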
